A study of Mus musculus with 19 samples.

Results

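The probe sets described here detect transcripts of immunoglobulin genes, of the J chain, of 6 genes of B cell identity and signalling (Cd79a, Cd79b, Ms4a1, Cd22, Blk and Pax5), and of the MHC class II genes H2-Aa, H2-Ab1 and H2-Eb1 with the invariant chain Cd74. They were chosen by gene symbol alone: a probe set belonged if its symbol field held a symbol starting with Igh, Igk or Igl, or was 1 of the other names, and probe sets that list several symbols were included. The rule took 93 of the 12488 probe sets of the array, 80 with 1 symbol and 13 with several. They comprise 39 heavy chain, 36 kappa chain and 2 lambda chain probe sets, 2 for Igll1, 1 for Jchain, 4 for the class II genes with Cd74, and 9 for the other B cell genes. The arrays measured total RNA of cells sorted as CD8+ T cells, whereas the genes of the rule are known from B cells, plasma cells and other antigen-presenting cells.

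The cells were OT-I T cells, CD8+ cells that carry a transgenic T cell receptor for an ovalbumin peptide, taken back from the lymph nodes and spleen of B6 mice into which they had been transferred. Irradiated hosts were sampled in a group titled day 5 (8 arrays), at day 40 (4 arrays) and at day 115 (3 arrays), and unirradiated hosts provided 4 arrays. The day 5 group is described as sorted at day 6, which is also the day given for the unirradiated hosts, and the unirradiated group has no later time. For day 5 arrays 1 and 2 the description says cells and no more. Nothing in the labels says whether arrays of a group came from separate mice or pools, so the p-values measure the spread between these samples, which may be technical.

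As background, B cells assemble an antibody from a heavy chain and a kappa or lambda light chain, each made from a variable and a constant segment. Naive B cells carry IgM and IgD at the surface together with the signalling chains Cd79a and Cd79b, and plasma cells, their secreting descendants, hold very large amounts of immunoglobulin mRNA and use the J chain to join IgM or IgA units. MHC class II molecules present peptides to CD4+ T cells and are carried by B cells, dendritic cells and macrophages. Mouse T cells do not normally transcribe rearranged light chains or class II genes. In bulk RNA, fewer cells of a type and less RNA per cell cannot be told apart.

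The sorted cells carried T cell transcripts throughout. The Cd8a signal lay between 1851 and 3906 on all 19 arrays, and that of Cd3e between 180 and 291. The arrays fell into 2 clusters when joined by their correlation over the tested probe sets outside the rule. Cluster 1 held day 5 arrays 1 to 3, day 40 arrays 1 and 2 and all day 115 arrays, and cluster 2 held day 5 arrays 4 to 8, day 40 arrays 3 and 4 and all unirradiated arrays. The labels name no reason for this split. Cd8a lay between 1851 and 2305 on the arrays of cluster 1 and between 2316 and 3906 on those of cluster 2. Day 115 and unirradiated hosts share no cluster, so the differences the results turn on are also given from a fit with array cluster as a term, which takes the size of the cluster difference from days 5 and 40.

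Differences were tested with limma on log2(signal + 16) over 8695 probe sets, those with a mean signal above 26.4, and a probe set was called where the Benjamini-Hochberg adjusted p over all of them was under 0.05. All log2 differences below are on that scale, which understates the change of low signals. Of the 93 probe sets, 59 passed this filter and 34 did not. Just under it lay Ighm 101871_f_at with a mean of 26.2 and Ighg3 102722_g_at with 26.2. Just above it lay Igkv6-14 101331_f_at with 28.8 and Igkv14-111 96974_at with 28.9. The highest signal of any probe set under the filter was 40.6, for the Iglc1 and Iglv1 probe set 93638_s_at on day 40 array 2.

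Some immunoglobulin probe sets and all 4 class II probe sets were higher at day 115 than in unirradiated hosts, 2 kappa probe sets were already higher at day 40, and no probe set passed the test at day 5. None of the class II calls against unirradiated hosts was made with array cluster as a term. At day 115, 24 of the 59 tested were called against unirradiated hosts, 23 higher and 1 lower, where 27.9% of all tested probe sets were called in either direction and 15.1% were higher. The median difference of the 59 was 0.24, against 0.01 over all tested. With array cluster as a term, 7 of the 59 were called, where 4.42% of all tested probe sets were. Igkv6-14 101331_f_at, 1 of the 59, passed the filter only through its day 115 signals, so its place among these calls is a description. Every array of day 115 lay above every unirradiated array for 25 of the 59, against 21.7% of all tested.

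At day 40, 2 of the 59 were called against unirradiated hosts, both kappa and both higher, where 1.5% of all tested were called. With array cluster as a term this count was 3, where 2.23% were called. Every day 40 array lay above every unirradiated array for 8 of the 59, against 8.6% of all tested, so that share is near the background. At day 5, 0 of the 59 were called by limma, where 0.794% of all tested were. An unadjusted p under 0.05 was found for 3 of the 59, a count not made over all tested probe sets.

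Among irradiated hosts, 19 of the 59 were called at day 115 against day 5, 18 higher and 1 lower, where 13.9% of all tested were called and 8.23% were higher. All 19 were also among the 24 called against unirradiated hosts. Probe set 101331_f_at, 1 of the 18 higher, passed the filter only through its day 115 signals, so its place there is a description. With array cluster as a term 18 were called, 15 higher and 3 lower, where 14.3% of all tested were. Of these 18, 16 were among the 19. Within cluster 1, where 3 day 115 arrays met 3 day 5 arrays, 2 were called, where 1.28% were. Day 40 against day 5 gave 1 call, where 1.25% of all tested were called. Day 115 against day 40 gave 1 call, where 0.092% were, and every day 115 array lay above every day 40 array for 12 of the 59, against 4.06% of all tested.

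The 2 largest differences at day 115 belonged to kappa probe sets. The brightest kappa probe set, 93086_at, lists Igkv6-23, Igkv4-53, Igkv8-30, Igkj1 and the constant gene Igkc, the segment shared by all kappa chains. Its signal was 149, 129, 219 and 143 on the 4 unirradiated arrays. At day 5 it was 287, 610 and 140 on the arrays of cluster 1, and 202, 269, 181, 386 and 418 on those of cluster 2. The 2 groups overlapped through day 5 arrays 3, 4 and 6.

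The day 40 arrays read 551, 1606, 1073 and 1122 for this probe set, and the day 115 arrays 4427, 2427 and 1946. Every day 40 array lay above every unirradiated one, and every day 115 array above every array of the other groups. The group means were 160 ± 40.2 (SD, n = 4) in unirradiated hosts, 311 ± 155 (SD, n = 8) at day 5, 1088 ± 431 (SD, n = 4) at day 40 and 2933 ± 1316 (SD, n = 3) at day 115.

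Against unirradiated hosts the log2 difference of 93086_at was 2.58 ± 0.39 (SE) at day 40, with an adjusted p of 0.00124. At day 115 it was 4.00 ± 0.42 (SE), with an adjusted p of 1.15e-05. Array cluster as a term left both in place, at 2.59 and 4.02. At day 5 the difference was 0.79 ± 0.34 (SE) and missed the threshold, with an adjusted p of 0.319.

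The rise was also seen between the irradiated groups. Day 115 exceeded day 5 by 3.22 in log2 (adjusted p 5.7e-05), and by 3.16 within array cluster 1 (adjusted p 0.0215). Day 40 exceeded day 5 by 1.79 (adjusted p 0.0112), a call that was lost without day 40 array 4, at an adjusted p of 0.0597, and with a replicate block, at 0.0741. That difference was 1.63 within array cluster 1 (adjusted p 0.501) and 1.93 within array cluster 2 (adjusted p 0.00439). Day 115 exceeded day 40 by 1.42, which did not pass at an adjusted p of 0.204, although the groups did not overlap.

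**Figure D1:**
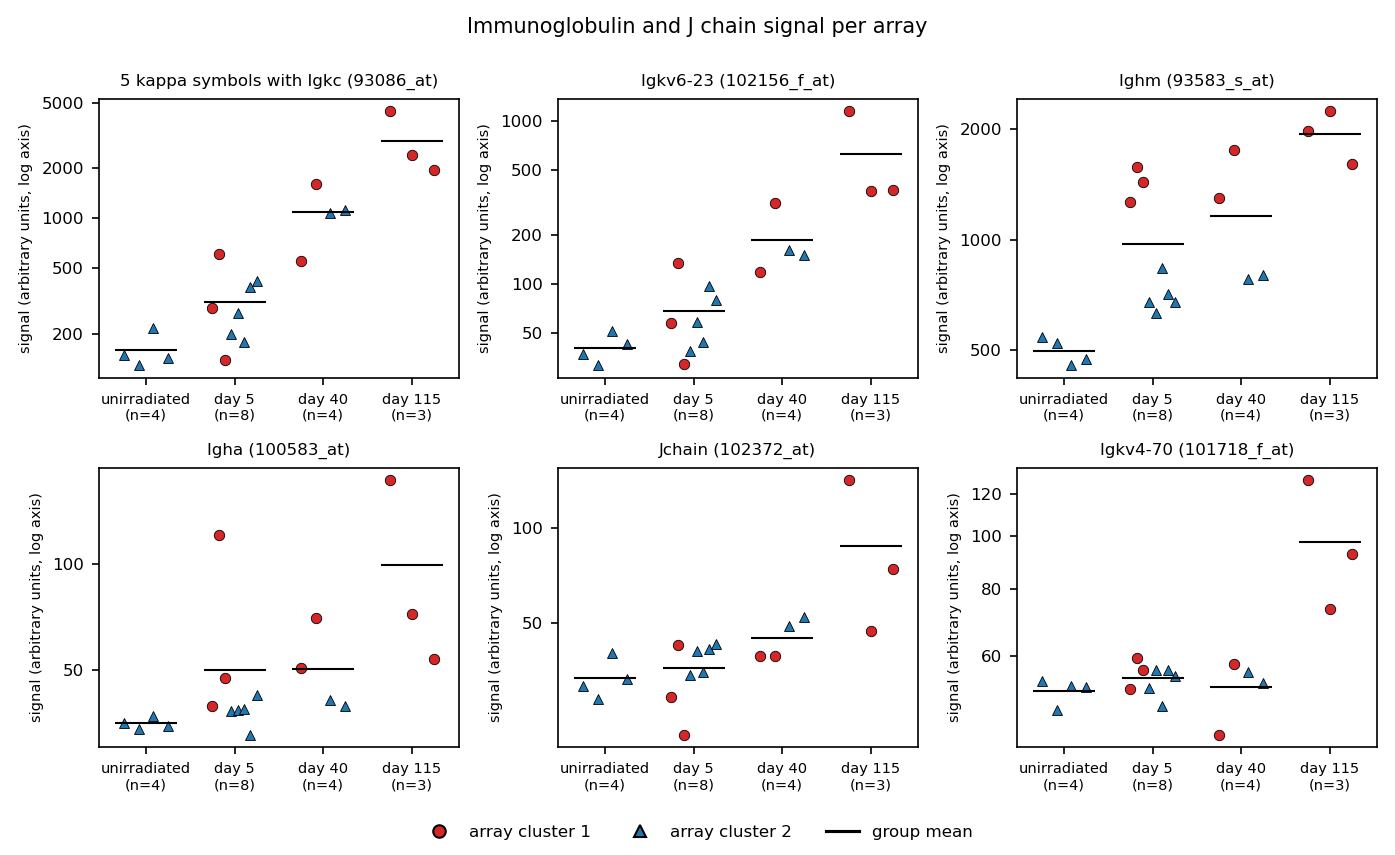
Signal of 6 immunoglobulin and J chain probe sets on each array (y axis, arbitrary units, log axis) by group (x axis). Circles are arrays of cluster 1, triangles arrays of cluster 2 and bars group means. The kappa probe set 93086_at runs from 129 to 219 in unirradiated hosts and from 1946 to 4427 at day 115, and Ighm 93583_s_at separates by cluster within days 5 and 40.

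A variable gene, Igkv6-23 (102156_f_at), followed the same order of groups. Its signal was 37.3, 31.8, 51.4 and 42.8 in unirradiated hosts, ran at day 5 from 32.3 through a median of 58.1 to 135, and was 118, 312, 162 and 151 at day 40 and 1144, 370 and 376 at day 115. The day 40 arrays lay above all unirradiated arrays and overlapped day 5 through day 5 array 2, and the day 115 arrays lay above all others. The log2 difference from unirradiated hosts was 1.75 ± 0.37 (SE) at day 40 (adjusted p 0.0197) and 3.31 ± 0.40 (SE) at day 115 (adjusted p 4.75e-05), or 3.16 with array cluster as a term. The day 40 call was lost without day 40 array 2 or unirradiated array 1, 2 or 4, at adjusted p-values of 0.0696, 0.0604, 0.0612 and 0.0553. Igkv6-23 is also among the symbols of 93086_at, so the pair may share transcripts.

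The other kappa probe sets showed smaller differences. Igkv4-70 (101718_f_at) stayed between 43 and 59.6 on the 16 arrays of the other groups and was 127, 73.5 and 92.9 at day 115. Its log2 difference at day 115 was 0.72 ± 0.12 (SE) from unirradiated hosts (adjusted p 0.000836) and 0.73 with array cluster as a term. It was the 1 probe set called between day 115 and day 40, at 0.71 ± 0.12 (SE) with an adjusted p of 0.0205, and this call was lost without day 40 array 4 (adjusted p 0.068) and with a replicate block (adjusted p 0.258). Within array cluster 1 the difference was 0.76 (adjusted p 0.996). Leaving out day 115 array 3 raised the count of calls between day 115 and day 40 from 1 to 4. Over all tested probe sets this count also rose, from 8 to 20.

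Igkv6-14 (101331_f_at) was 20.3, 20.6, 24.1 and 20.2 in unirradiated hosts and 77.9, 63.1 and 27 at day 115. Day 115 array 3 lay just above the unirradiated arrays and below 3 of the day 40 arrays, which read 29.7, 29.6, 28.1 and 25.4. Its mean over the 16 arrays outside day 115 was 23.6, under the filter of 26.4, so it was tested only because of its day 115 signals. The log2 difference from unirradiated hosts, 0.88 ± 0.16 (SE), is therefore given as a description.

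A further 4 probe sets list Igkc together with genes of the Igkv4 family. All 4 were higher at day 115 than in unirradiated hosts, by 0.40 to 0.86 in log2, and their day 115 arrays did not overlap the unirradiated arrays. The probe set for Igkv4-59, Igkv4-70 and Igkc (102585_f_at) was 71.1, 56.5, 62.9 and 64.3 in unirradiated hosts and 175, 124 and 96.4 at day 115, and it kept its call with array cluster as a term (adjusted p 0.0321). The other 3, 101640_f_at, 97566_f_at and 97567_f_at, did not, at adjusted p-values of 0.056, 0.0775 and 0.106, and 97567_f_at was also lost without day 115 array 1 (adjusted p 0.0516). Of the remaining kappa calls, Igkv4-91 rose by 0.46, Igkv8-19 by 0.30 and Igkv14-111 (100682_f_at) by 0.24. None of these 3 was called with array cluster as a term, at differences of 0.46, 0.19 and 0.23 and adjusted p-values of 0.0605, 0.352 and 0.167. The call of Igkv8-19 was lost without day 115 array 1 or unirradiated array 1, 2 or 4 (adjusted p 0.174, 0.0823, 0.0883 and 0.0524), and that of Igkv14-111 without day 115 array 1 or unirradiated array 1 (adjusted p 0.139 and 0.0552).

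The kappa class did not move as a whole. Of its 24 tested probe sets, 11 were higher at day 115, 1 was lower and 12 were not called, with a median difference of 0.24. Probe set 101331_f_at, 1 of the 11, passed the filter only through its day 115 signals, so its place in this count is a description. Over all tested probe sets, 15.1% were called higher and 27.9% in either direction. The lower one was Igkv8-30 (96963_s_at), at 84.7, 71.9, 80.2 and 71.8 in unirradiated hosts and 71, 36.5 and 51.5 at day 115. Its log2 difference was -0.46 ± 0.14 (SE) with an adjusted p of 0.0205, and the call was lost without day 115 array 2 or 3 or unirradiated array 1, at adjusted p-values of 0.127, 0.0529 and 0.0525, and with array cluster as a term, at -0.36 and 0.213. The same symbol stands in the field of 93086_at, which rose, so the symbol alone does not fix what a probe set reads.

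Heavy chain transcripts were led by Ighm, the constant gene of IgM, which has 16 probe sets of its own, 9 of them tested, with mean signals from 11.8 to 1068. The brightest, 93583_s_at, was 545, 523, 455 and 475 in unirradiated hosts and 1985, 2241 and 1606 at day 115. At day 5 it was 1267, 1582 and 1435 on the arrays of cluster 1, and 676, 634, 840, 713 and 677 on those of cluster 2. At day 40 it was 1301 and 1759 in cluster 1, and 783 and 803 in cluster 2. Within each time the arrays of cluster 1 lay above those of cluster 2, and every irradiated array lay above every unirradiated one.

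The log2 difference of 93583_s_at from unirradiated hosts was 1.92 ± 0.33 (SE) at day 115, with an adjusted p of 0.00133. With array cluster as a term it was 0.95, with an adjusted p of 0.00725. At day 40 it was 1.11 (adjusted p 0.0792), or 0.63 with array cluster as a term (adjusted p 0.0266). Within cluster 2 it was 0.49 at day 5 (adjusted p 0.0366) and 0.65 at day 40 (adjusted p 0.0253). Day 115 exceeded day 5 by 1.06 (adjusted p 0.0241), a call lost without day 115 array 1 or 2, at adjusted p-values of 0.0728 and 0.105. Within array cluster 1 that difference was 0.43 (adjusted p 0.259).

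A second bright Ighm probe set, 93584_at, gave another picture. It was 550, 568, 369 and 413 in unirradiated hosts, 1075, 1131 and 1148 at day 5 in cluster 1 with 655, 638, 685, 685 and 559 in cluster 2, 755, 1637, 596 and 554 at day 40, and 1002, 782 and 803 at day 115. Its day 115 arrays lay below the cluster 1 arrays of day 5. The day 115 difference was 0.85 ± 0.33 (SE) with an adjusted p of 0.0603, and 0.02 with array cluster as a term. Quantile normalisation brought it to 1.04 with an adjusted p of 0.0483, so this call turned on the scaling.

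Of the other Ighm probe sets, 100362_f_at, 97577_f_at and 99420_at were called at day 115, by 0.68, 0.28 and 0.54. None of these 3 kept its call with array cluster as a term (adjusted p 0.832, 0.427 and 0.386), and each was lost without day 115 array 1 (adjusted p 0.0767, 0.064 and 0.275). The first was also lost without day 115 array 2 or 3 or unirradiated array 1 or 2, with adjusted p-values from 0.051 to 0.0598, 97577_f_at without day 115 array 3 (0.113), and 99420_at without day 115 array 3 or any 1 unirradiated array, from 0.0581 to 0.0755. The other 4 tested Ighm probe sets, 101346_at, 101745_f_at, 101870_at and 97568_at, were not called, at adjusted p-values of 0.942, 0.0552, 0.887 and 0.983. The highest signal of the 7 under the filter was 36.1. Ighm is also among the symbols of 92470_f_at and 99421_at, which were not called (adjusted p 0.891 and 0.45). The variable gene Ighv1-54 rose by 0.41, or by 0.21 with array cluster as a term, which ended the call (adjusted p 0.291). Ighv5-12 and Igh-VS107 102152_f_at, the brightest of the heavy chain variable genes, differed by 0.10 and -0.11 and were not called (adjusted p 0.70 and 0.56). Over all heavy chain probe sets, 6 of the 18 tested were called, all higher, with a median difference of 0.06, where 15.1% of all tested were higher.

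Constant genes of other antibody classes divided. Igha, the constant gene of IgA, was 35.4, 34, 36.9 and 34.6 in unirradiated hosts and 173, 72.2 and 53.8 at day 115 on 100583_at. Its highest array outside day 115 was day 5 array 2 at 121, while the other 7 day 5 arrays ran from 32.8 to 47.4. The day 115 difference of 1.04 ± 0.31 (SE) had an adjusted p of 0.02, which became 0.355 with array cluster as a term and 0.13 without day 115 array 1. Ighd, the constant gene of IgD, was 68.8 to 87.1 in unirradiated hosts and 61.2 to 81 at day 115, with a difference of -0.13 (adjusted p 0.429), or -0.18 with array cluster as a term (adjusted p 0.465). The other 2 Igha probe sets, 161486_f_at and 97009_f_at, lay under the filter. Of 7 probe sets for Ighg3, 1 was tested, 102721_at, which differed by 0.02 (adjusted p 0.888), or by -0.06 with array cluster as a term (adjusted p 0.82).

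The J chain joins the units of secreted IgM and IgA. Its signal was 31.8, 28.9, 40.4 and 33.5 in unirradiated hosts, ran at day 5 from 22.3 through a median of 38 to 43, and was 39.5, 39.4, 49.1 and 52.2 at day 40 and 141, 47.2 and 74 at day 115. The day 115 arrays lay above all unirradiated and day 5 arrays and overlapped day 40. The difference from unirradiated hosts was 0.96 ± 0.21 (SE) with an adjusted p of 0.00463, and 1.20 with array cluster as a term (adjusted p 0.0104).

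Lambda and surrogate light chains were not called in any of the 6 comparisons. The lambda constant gene Iglc1 (93639_r_at) was 39.9 to 45.5 in unirradiated hosts and 49.6, 35.2 and 55.2 at day 115, a difference of 0.08 (adjusted p 0.563), or -0.08 with array cluster as a term (adjusted p 0.718). Igll1, a part of the surrogate light chain of B cell precursors, differed at day 115 by -0.15 on both of its probe sets (adjusted p 0.448 and 0.203), and by -0.23 and -0.31 with array cluster as a term (adjusted p 0.448 and 0.0605).

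MHC class II genes were all called higher at day 115 than in unirradiated hosts, where 15.1% of all tested probe sets were. The 4 of 4 class II probe sets called had a median difference of 1.34. Promoter sequences from RefSeq (GRCm38.p6) were at hand for 2 of these genes, H2-Aa (chr17:34287774-34288073, minus strand) and H2-Eb1 (chr17:34305617-34305916, plus strand). They are shown because class II promoters are known for a shared X box and an inverted CCAAT box, and these 2 genes moved in the same direction. Capitals mark GCAACT, which forms part of the X box and was chosen after the windows had been read, and ATTGG or CCAAT, the CCAAT box on either strand.
H2-Aa: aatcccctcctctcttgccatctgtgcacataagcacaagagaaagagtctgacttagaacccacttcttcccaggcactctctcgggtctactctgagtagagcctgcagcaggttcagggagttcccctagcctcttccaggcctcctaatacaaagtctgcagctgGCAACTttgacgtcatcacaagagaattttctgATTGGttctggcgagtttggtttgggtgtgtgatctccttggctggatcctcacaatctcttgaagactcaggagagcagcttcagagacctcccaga
H2-Eb1: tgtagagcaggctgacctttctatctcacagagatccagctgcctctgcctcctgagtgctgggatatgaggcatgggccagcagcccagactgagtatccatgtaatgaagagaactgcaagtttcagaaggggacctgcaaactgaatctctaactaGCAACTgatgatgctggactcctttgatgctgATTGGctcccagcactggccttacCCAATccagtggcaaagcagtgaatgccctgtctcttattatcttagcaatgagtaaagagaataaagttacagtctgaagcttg

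In both windows GCAACT stands before ATTGG, 81 and 48 bases before the start in H2-Aa, and 91 and 59 bases before it in H2-Eb1, with 27 and 26 bases between them. H2-Eb1 holds a further CCAAT at 35 bases before the start. On both strands, GCAACT occurs in 10.9% and CCAAT in 37.4% of all 32851 promoter windows of this length. The 7 genes of the rule with such a window were Pax5, Jchain, Cd79a, Cd22, Igll1, H2-Aa and H2-Eb1, and each motif was found in 2 of the 7, the pair shown. Since GCAACT was chosen after these windows were read, its count among the 7 is a description. The octamer ATTTGCAT, an element known from immunoglobulin promoters, was in 0 of the 7 and in 1.74% of all windows.

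H2-Aa, the alpha chain of I-A, was 91.5, 159, 54.1 and 54.9 in unirradiated hosts. It was 149, 268 and 173 at day 5 in cluster 1 and 58.9, 70.5, 66.8, 79.2 and 80 in cluster 2. At day 40 it was 151, 400, 259 and 162, and at day 115 786, 263 and 243. The day 115 arrays lay above all unirradiated arrays and overlapped day 5 and day 40. The difference from unirradiated hosts was 1.98 ± 0.49 (SE) at day 115 (adjusted p 0.00847), and 1.07 with array cluster as a term (adjusted p 0.214).

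H2-Ab1, the beta chain of I-A, was 73.9, 94.2, 61.6 and 60.2 in unirradiated hosts and 257, 160 and 141 at day 115. At day 5 its cluster 1 arrays read 104, 139 and 109 and its cluster 2 arrays 58.4 to 77.5. Its day 115 difference was 1.16 ± 0.26 (SE) with an adjusted p of 0.00523, which was 0.167 with array cluster as a term.

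H2-Eb1, the beta chain of I-E, was 144, 199, 147 and 106 in unirradiated hosts and 552, 204 and 267 at day 115, where the second array lay just above the highest unirradiated array. Its difference of 1.02 ± 0.32 (SE) had an adjusted p of 0.0248, which was 0.42 with array cluster as a term, 0.154 without day 115 array 1 and 0.0731 without unirradiated array 4.

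Cd74, the invariant chain that class II molecules carry to the endosome, was 83.2, 84.3, 78.5 and 76.7 in unirradiated hosts. It was 123, 228 and 150 at day 5 in cluster 1 and 71.2 to 95.8 in cluster 2, and 113 and 239 at day 40 in cluster 1 with 80.7 and 84.9 in cluster 2. At day 115 it was 470, 204 and 180, above all unirradiated arrays. The difference of 1.51 ± 0.36 (SE) had an adjusted p of 0.00712, which was 0.22 with array cluster as a term.

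At day 115 against day 5, H2-Aa, H2-Ab1 and Cd74 were called, at 1.69, 1.01 and 1.15. Each of these calls was lost without day 115 array 1, at adjusted p-values of 0.111, 0.0626 and 0.158. With array cluster as a term, H2-Ab1 kept its call against day 5, and H2-Aa and Cd74 did not. Within array cluster 1, H2-Aa, H2-Ab1 and Cd74 differed from day 5 by 0.90, 0.57 and 0.64. None was called there, at adjusted p-values of 0.278, 0.202 and 0.351.

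**Figure D2:**
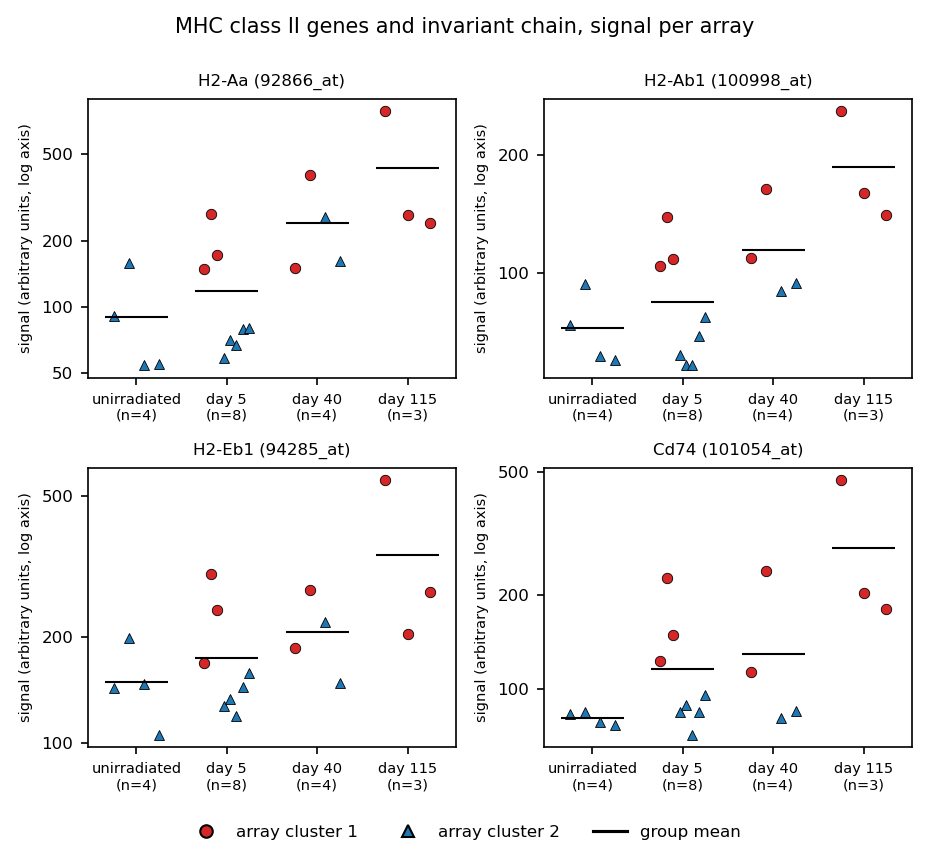
Signal of H2-Aa, H2-Ab1, H2-Eb1 and Cd74 on each array (y axis, arbitrary units, log axis) by group (x axis), with circles for cluster 1, triangles for cluster 2 and bars for group means. Day 115 array 1 is the highest array in each panel, and the 3 day 5 arrays of cluster 1 lie above the 5 of cluster 2.

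Few genes of B cell identity and signalling passed the test. Of 9 probe sets for 6 genes, 1 was called at day 115 against unirradiated hosts, with a median difference of 0.21, a share no larger than the 27.9% of all tested that were called. It belonged to Blk, a Src family kinase of B cells (95893_at), at 26, 21.6, 25.2 and 29.5 in unirradiated hosts, 25.6, 58.4, 43.5 and 39.2 at day 40 and 99, 52.4 and 41.4 at day 115. The difference was 0.89 ± 0.19 (SE) with an adjusted p of 0.00437, which was 0.0713 with array cluster as a term. The other Blk probe set, 92359_at, was 32, 56.3 and 21.6 at day 115, with a difference of 0.20 (adjusted p 0.303).

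Ms4a1, which encodes the B cell surface protein CD20, was 72.2, 66.2, 74.2 and 74.3 in unirradiated hosts on 99446_at. At day 40 it was 61.4, 221, 157 and 150, so array 1 lay below all unirradiated arrays and the other 3 above them. At day 115 it was 239, 73.6 and 64, and the high value came from array 1. The differences of 0.79 at day 40 and 0.48 at day 115 did not pass (adjusted p 0.223 and 0.281). Its other probe set, 104173_at, was 87.9, 167, 133 and 136 at day 40 and 155, 75.8 and 110 at day 115, against 88.8 to 96 in unirradiated hosts, and it was not called either.

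Cd79b, a signalling chain of the B cell receptor, was 99.5, 109, 94.8 and 75 in unirradiated hosts, 221, 193 and 181 at day 5 in cluster 1 and 92.5 to 106 in cluster 2, 120, 275, 115 and 106 at day 40, and 270, 163 and 135 at day 115. The day 115 difference of 0.85 ± 0.32 (SE) did not pass (adjusted p 0.0542) and was 0.06 with array cluster as a term. Its partner Cd79a was 124 to 151 in unirradiated hosts and 154, 147 and 168 at day 115, a difference of 0.19 (adjusted p 0.391).

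Cd22, an inhibitory receptor of B cells, was 48.9 to 54.8 in unirradiated hosts, 64.4, 66.2, 70.9 and 74.9 at day 40 and 80.8, 63.1 and 52.6 at day 115. Every day 40 array lay above every unirradiated array, and the differences of 0.34 at day 40 and 0.27 at day 115 did not pass (adjusted p 0.102 and 0.0754). Pax5, the transcription factor of B cell identity, differed by 0.12 and 0.11 at day 115 on its 2 probe sets (adjusted p 0.46 and 0.411).

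Within array cluster 2, the comparison of 2 day 40 arrays with the 4 unirradiated arrays called some of the B cell genes and not others. It called 8 of the 59, where 3.07% of all tested were called, and all 8 were higher. These were Ms4a1 on both probe sets (0.95 and 0.47), Cd22 (0.41), Blk 95893_at (0.47), Jchain (0.43), Ighm 93583_s_at (0.65), Igkv6-23 (1.61) and 93086_at (2.69). Of the other B cell probe sets, Cd79b differed by 0.21, Cd79a by -0.05, Pax5 by -0.11 and -0.09, and Blk 92359_at by -0.02. None of these was called. The 2 arrays are day 40 arrays 3 and 4.

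**Figure D3:**
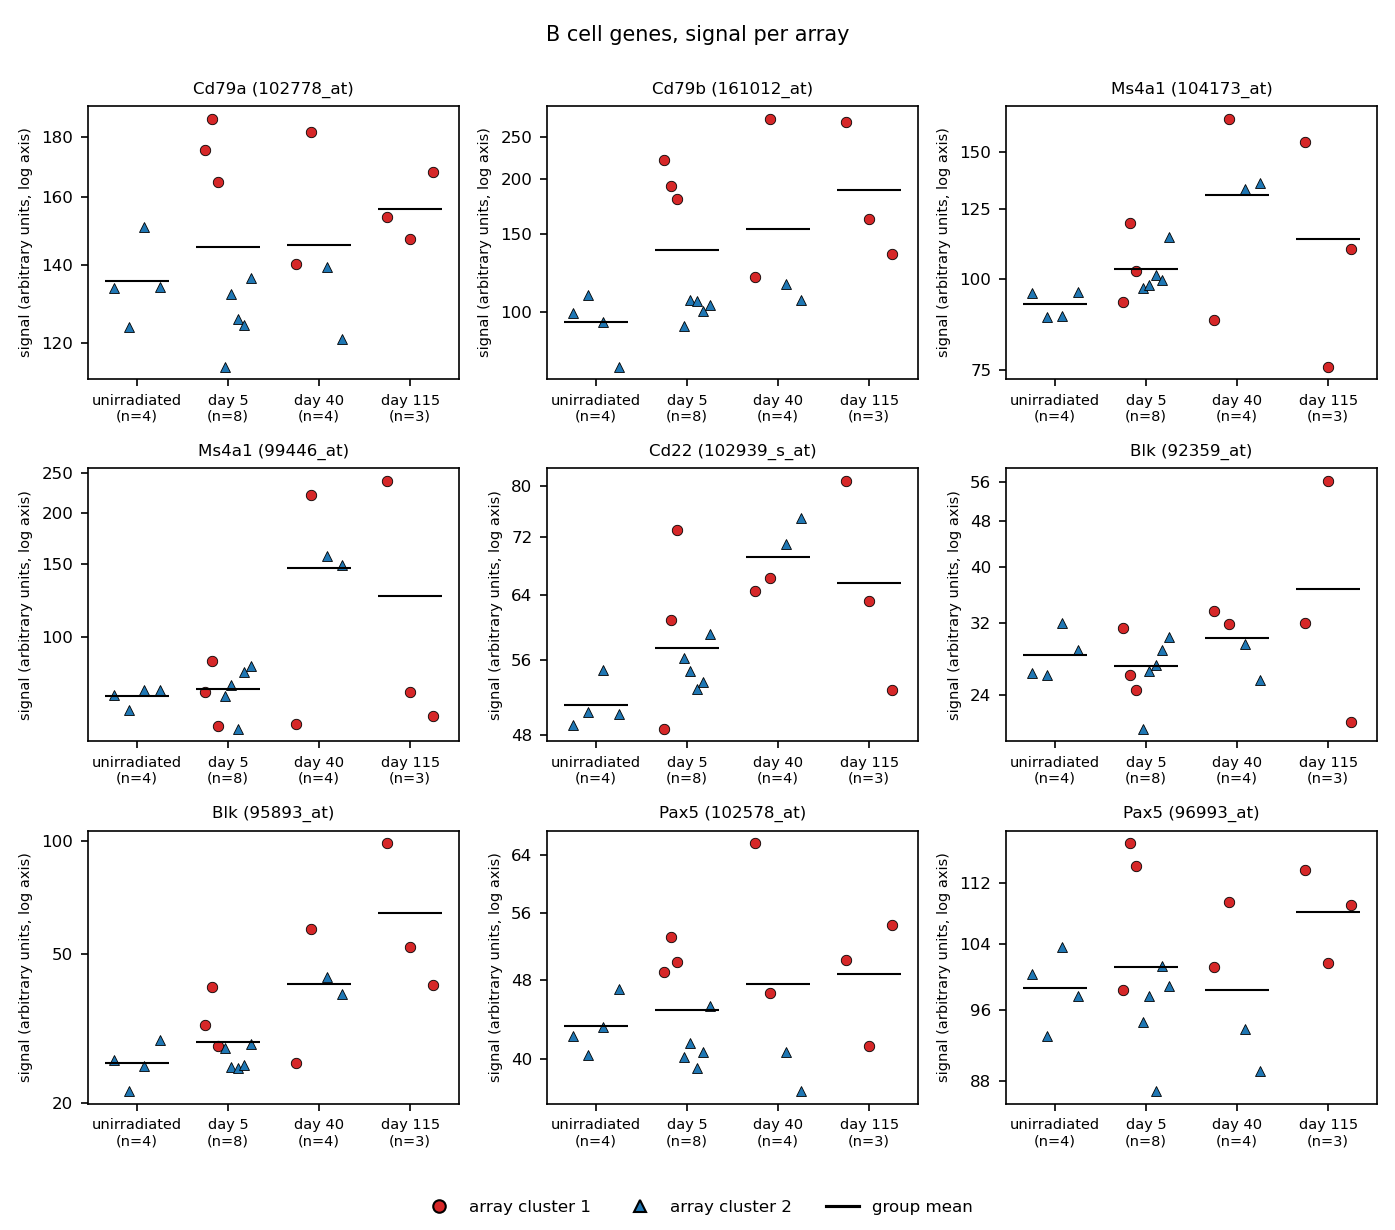
Signal of the 9 probe sets of Cd79a, Cd79b, Ms4a1, Cd22, Blk and Pax5 on each array (y axis, arbitrary units, log axis) by group (x axis), with circles for cluster 1, triangles for cluster 2 and bars for group means. Day 40 arrays 2 to 4 stand above the unirradiated arrays for Ms4a1, and Cd79b separates by cluster at day 5.

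Among these probe sets a single array stood out at day 115. Of the 23 probe sets that were higher at day 115 than in unirradiated hosts, 21 had their highest day 115 signal on array 1, 1 on array 2 and 1 on array 3. This count was not made over all tested probe sets, so whether it is particular to these 23 is not known. Without array 1, 16 calls against unirradiated hosts and 9 against day 5 were made, in place of 24 and 19. Over all tested probe sets the calls also fell, from 2427 to 1830 and from 1205 to 812. Without array 2 or 3, 23 and 22 calls against unirradiated hosts were made, and 1554 and 1611 over all tested probe sets. Against day 5 these counts were 18 and 21, and 589 and 896 over all tested probe sets. The 24 calls cover 21 symbol fields, and 19 came from the 49 tested probe sets with 1 symbol.

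Array cluster moved with many of these values. At day 5, every array of cluster 1 lay above every array of cluster 2 for 18 of the 59, including Ighm 93583_s_at, Cd79a, Cd79b and all 4 class II probe sets, against 29.5% of all tested, so the share is near the background. The 7 probe sets called at day 115 against unirradiated hosts with array cluster as a term were 93086_at, Igkv6-23, Igkv4-70, Igkv6-14, 102585_f_at, Ighm 93583_s_at and Jchain, which are 5 kappa probe sets, 1 heavy chain and the J chain; without Igkv6-14, which the filter kept only through day 115, they are 6. No class II gene and no other B cell gene was among them.

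**Figure D4:**
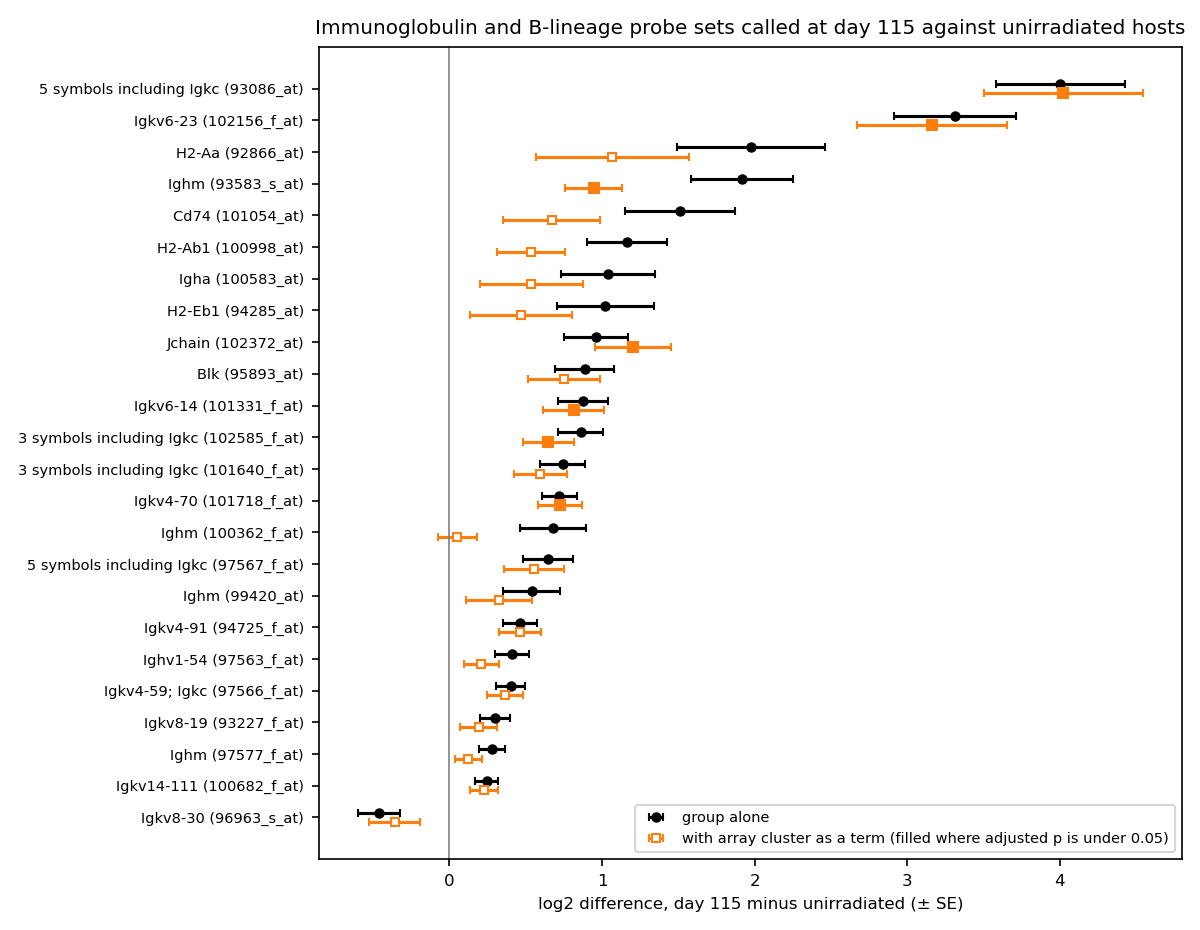
Log2 difference of day 115 minus unirradiated hosts (x axis, bars are SE) for the 24 probe sets called in that comparison (y axis). Black circles are from the fit with group alone and orange squares from the fit with array cluster as a term, filled where the adjusted p is under 0.05, which holds for 7 of the 24.

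Other genes of the B lineage were followed on lists. Of 18 tested B cell genes outside the rule, 3 were called at day 115 against unirradiated hosts, all higher, with a median difference of 0.23. That share is near the 15.1% of all tested that were higher. The 3 were Cd37, a tetraspanin, from 257 ± 44.2 (SD, n = 4) to 401 ± 70.8 (SD, n = 3), Cxcr5, the follicle homing receptor, from 69.6 ± 10.8 (SD, n = 4) to 134 ± 83.8 (SD, n = 3), and H2-DMb2, a class II peptide editor, from 71.2 ± 9.68 (SD, n = 4) to 96.5 ± 12.1 (SD, n = 3). Cd37 was also called with array cluster as a term (0.77, adjusted p 0.0349), and Cxcr5 and H2-DMb2 were not (0.45 and 0.19, adjusted p 0.368 and 0.449). At days 5 and 40, 0 of the 18 were called.

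Of 11 tested plasma cell genes outside the rule, 2 were higher and 1 was lower at day 115, with a median difference of -0.0039, a share near the 27.9% of all tested that were called. Txndc5, a disulphide isomerase of the endoplasmic reticulum, was 120, 142, 97.7 and 87.8 in unirradiated hosts and 792, 1050 and 739 at day 115. At day 5 it was 267, 196 and 179 in cluster 1 and between 87.5 and 129 in cluster 2, and at day 40 it was 700 and 373 in cluster 1 and 157 and 190 in cluster 2. Within both times the arrays of cluster 1 lay above those of cluster 2. Its day 115 difference was 2.78 ± 0.40 (SE) with an adjusted p of 0.000267, or 1.69 with array cluster as a term (adjusted p 0.00182), and its highest day 115 array was array 2, not array 1. Herpud1, which serves the disposal of misfolded proteins, rose by 0.79, and Dnajb9, a chaperone of the same compartment, fell by 1.09, and neither was called with array cluster as a term (adjusted p 0.164 and 0.174). The plasma cell regulators Xbp1 and Irf4 and the surface proteins Sdc1 and Tnfrsf17 were tested and not called. Xbp1 was 31.8 to 66.4 in unirradiated hosts and 22.1 to 50.5 at day 115, and Prdm1 lay under the filter.

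Markers of cell types that a sort for CD8+ T cells could also hold were summed per array. For the calls given here, 27.9% of all tested probe sets were called at day 115 against unirradiated hosts, and 15.1% were higher. The B cell markers summed to between 568 and 639 in unirradiated hosts and between 704 and 1042 at day 115, with 1 of 7 tested called. Plasma cell markers summed to between 284 and 418 and between 957 and 1252, with 2 of 6 called, Jchain and Txndc5. Txndc5 alone gave between 739 and 1050 of the day 115 sums, and the median difference of the 6 was 0.04. Markers of dendritic cells and macrophages summed to between 3092 and 3770 and between 1599 and 2393, with 1 higher (Itgax) and 1 lower (Ctss) of 12. Ctss, with a mean of 1930 over all arrays, made up most of this sum, and the median difference of the 12 was 0.05. Markers of CD8 T cells summed to between 10376 and 12446 and between 13821 and 15089, with Cd2 and Thy1 higher of 12. Cr2 and Fcer2a of B cells, and Itgam, Lyz2, Adgre1, Cybb, Fcer1g and Aif1 of myeloid cells, lay under the filter. The part of any such cells in the differences above was not tested.

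Transcripts of other tissues also moved at day 115. All 4 tested hepatocyte markers were called higher there, where 15.1% of all tested probe sets were. The hepatocyte markers summed to between 152 and 182 in unirradiated hosts and between 196 and 916 at day 115. Alb, serum albumin, was 29.4, 408 and 587 on day 115 arrays 1, 2 and 3 and between 22.4 and 32 on all 16 other arrays. Its call was kept with array cluster as a term (adjusted p 0.0458). Array 1, the highest for 93086_at, the class II genes and Jchain, was thus the low array for Alb. Of 3 erythroid markers 1 was called at day 115, Hba-a1, a haemoglobin chain, at 92.7 to 186 in unirradiated hosts and 342, 756 and 1138 at day 115, a call lost with array cluster as a term (adjusted p 0.482). Its highest signal, 2337, was on day 5 array 2, which also had the highest day 5 signals for 93086_at and Igha and is 1 of the 2 arrays described as cells alone. Whether these transcripts bear on the immunoglobulin signals was not tested.

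**Figure D5:**
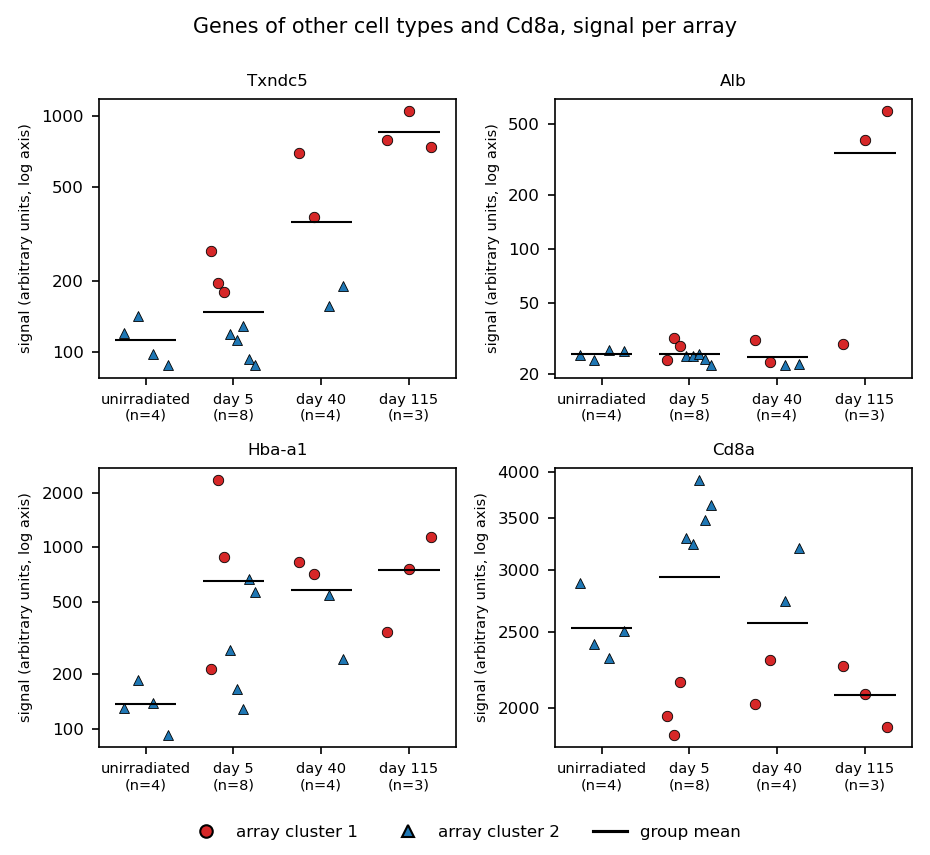
Signal of Txndc5, Alb, Hba-a1 and Cd8a on each array (y axis, arbitrary units, log axis) by group (x axis), with circles for cluster 1, triangles for cluster 2 and bars for group means. Alb is 29.4 on day 115 array 1 and 408 and 587 on the other day 115 arrays, and Txndc5 is between 739 and 1050 on all 3.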

How the data were processed

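Total RNA was measured on 19 oligonucleotide arrays of 12488 probe sets, 66 of them controls. The authors deposited 1 signal intensity per probe set and array on a linear scale. How they were computed from the scans is not stated in the labels or headers. Array medians ran from 49.6 to 53.7, so no scaling was added. Precision is limited by the number of arrays, and no 2 arrays of the series were near identical (median absolute log2 difference of at least 0.0854).

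The members and lists were chosen with earlier results of these data known. Symbols came from the platform annotation, which can be old; many probe sets of immunoglobulin genes may read several related genes. Values of log2(signal + 16) were fitted with limma 3.58.1 in R 4.3.3 (lmFit, eBayes with an intensity trend), with the 4 groups of the labels as the only factor, over the 8695 of 12422 non-control probe sets with a mean above the 30th percentile, 26.4. P-values of each of the 6 comparisons were adjusted by Benjamini-Hochberg over all of them. The rule for named genes took the probe sets of the singly listed genes and of constant-region genes (those under the filter are given as counts), the other immunoglobulin probe sets with the largest calls or highest signals, and the members nearest the filter.

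Alternatives were pseudocounts of 1 and 64, no filter and the 50th percentile, quantile normalisation, no trend, array cluster as a term, each array cluster alone, the replicate number as a block, probe sets with 1 symbol, and each array left out. Promoters are 250 bases before to 50 after the start, found for 7 of 48 symbols. The fit was tested on simulated data.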

Additional observations from a re-analysis of the deposited data

Results flagged for a closer look

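Dixon's rule marked 5 of 99 group values examined over 33 probe sets, about the 1 in 20 that chance gives. Igha 100583_at was 121.23 on day 5 array 2, where the other day 5 arrays ran from 32.75 to 47.43. Cd79b was 274.77 on day 40 array 2, where the others ran from 105.97 to 120.0. Igkv8-19 was 27.45 on day 40 array 4, against 33.84 to 34.65 on the others. Igkv6-14 101331_f_at was 24.06 on unirradiated array 3, against 20.21 to 20.63. Ighm 97577_f_at was 27.94 on unirradiated array 1, against 25.79 to 26.08.

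The difference from unirradiated hosts itself differed between times for 19 probe sets, by the limma contrast between the irradiated groups, in which the unirradiated arrays cancel. These are the 19 of 59 called at day 115 against day 5 above, where 13.9% of all tested probe sets were called. Day 115 exceeded day 5 for 93086_at by 3.2157, Igkv6-23 by 2.8336, Igkv6-14 101331_f_at, which passed the filter only through day 115, by 0.83, 102585_f_at by 0.7332, 101640_f_at by 0.6754, Igkv4-70 by 0.6609, 97567_f_at by 0.603, Igkv4-91 by 0.5605, Igkv8-19 by 0.3762, 97566_f_at by 0.3731 and Igkv14-111 100682_f_at by 0.2187. Igkv8-30 96963_s_at differed by -0.526. Among the other classes the excess was 1.6874 for H2-Aa, 1.1488 for Cd74, 1.0568 for Ighm 93583_s_at, 1.0113 for H2-Ab1, 0.8986 for Jchain, 0.7708 for Blk 95893_at and 0.411 for Ighv1-54. Day 40 exceeded day 5 by 1.7922 for 93086_at, and day 115 exceeded day 40 by 0.706 for Igkv4-70. In these comparisons 1.25% and 0.092% of all tested probe sets were called.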

How the results depend on the processing

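Counts of called probe sets, over the 59 tested members unless another number is given, changed most with array cluster. The shares of all tested probe sets called changed too and are given beside them. With array cluster as a term, day 115 against unirradiated hosts gave 7, where 4.42% of all tested were called, against 27.9% in the main fit. Day 40 against day 5 gave 3, where 7.48% were called, against 1.25% in the main fit. Within cluster 1, day 115 against day 5 gave 2, and day 40 against day 5 and day 115 against day 40 gave 0. The shares of all tested were 1.28%, 0.0115% and 0%. Within cluster 2, day 5 and day 40 against unirradiated hosts gave 1 and 8, where 2.38% and 3.07% of all tested were called. Day 40 against day 5 gave 7 there, where 5.66% were called. With a replicate block, day 5 against unirradiated hosts gave 4 (over all tested probe sets 1707 in place of 69). The block gave 0 for day 40 against day 5, 6 for day 115 against day 5 and 0 for day 115 against day 40. The shares of all tested were 0.403%, 2.28% and 0.0345%. Same-numbered samples correlated over 0.1 in 8 of 21 pairs. Between days 5 and 40 the values were 0.64, 0.62, -0.67 and 0.76 for numbers 1 to 4, and only number 3 joins arrays of different clusters. The labels do not say what the number stands for. The 50th percentile filter gave 2 of 34 tested members for day 40 against day 5, in place of 1 of 59. Over all tested probe sets it gave 128 of 6211, in place of 109 of 8695. With no filter, 29 of 93 members were called for day 115 against day 5, in place of 19 of 59. Over all tested probe sets this was 1865 of 12422, in place of 1205 of 8695. With the 49 tested 1-symbol probe sets, day 40 gave 1 against unirradiated hosts and 0 against day 5. The shares of all tested were 1.5% and 1.25%. Leaving out each array in turn gave 0 to 0 calls for day 5 against unirradiated hosts (13 to 80 over all tested probe sets). For day 40 and day 115 against unirradiated hosts it gave 1 to 2 (54 to 138) and 16 to 23 (1554 to 2006). Against day 5 it gave 0 to 2 for day 40 (25 to 187) and 9 to 24 for day 115 (589 to 1653). Day 115 against day 40 gave 0 to 4 (3 to 87). Of 47 called single differences, array cluster as a term ended 20 calls, the replicate block 19, within cluster 1 19 of 21 and no trend 1, none changed sign, and 24 were kept in every omission of 1 array. Differences from unirradiated hosts at day 115 that had not been called changed sign with array cluster as a term for Cd79a (-0.1854) and Pax5 (-0.151 and -0.0577), and with 1 array left out for Ms4a1 (-0.0497 to 0.7871 and -0.0094 to 0.4378) and Blk 92359_at (-0.056 to 0.4156), of which the Blk value passed without day 115 array 3. The cause of these changes was not tested. Signals near the filter are low, and differences there may be missed.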
